A study of Mus musculus with 6 samples.

Results

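RNA-seq libraries labelled degeneration 2 and degeneration 3 were set against the other 4 libraries of the series, wild type 1 to 3 and degeneration 1. These 2 of 6 libraries were chosen by their own counts per gene, selected on the values of this contrast, in which transcripts known from heart muscle were scarce and transcripts known from kidney tubule were abundant. The division therefore follows no label and rests on the same values that are described here. It is given as a description of these libraries with no test, and it is not a comparison of degenerated with wild type discs.

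All 6 libraries carry C57BL/6 as strain and the intervertebral disc, the pad of cartilage and fibrous tissue between vertebrae, as source. By label, 3 libraries are wild type and 3 are disc degeneration. For neither group is an allele, operation, agent or time named, nor the way in which degeneration was made, nor whether animals were pooled or differ from library to library. The design text of the series gives an age of 21 days but speaks of retinal RNA. Totals ran from 3119215 to 4009562 counts per library, and levels are given as CPM, counts scaled by that total. A floor of 3 counts, 0.748 to 0.962 CPM by library, was taken as the limit of what a count of 0 allows, for counting error alone.

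The deposited gene names could not be used as they stand. Of 53546 rows, 49890 shared no base with exons of their own gene in GRCm38 (GENCODE M21), so rows were renamed by position, each after the gene with 80% or more of the exon bases below the row, if it had 100 bases or more there. This gave 11063 loci, with 51.0% to 60.0% of each library's counts. A locus can rest on a small part of its gene's exons, so levels were compared between libraries and not between genes. All 15 located mitochondrial genes summed to 0 counts in every library, and 388 loci on chromosome Y summed to 2 to 7 counts per library.

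Heart muscle cells contract through sarcomeres, in which myosin thick filaments slide along actin thin filaments while the giant protein titin spans from Z-disc to M-line. Calcium enters through voltage-gated channels, opens the ryanodine receptor of the sarcoplasmic reticulum and is pumped back by a calcium ATPase. The kidney tubule is an epithelium divided into segments: the proximal tubule reclaims phosphate, sulfate, amino acids and filtered protein, the thick ascending limb and distal tubule reclaim salt and divalent ions, and the collecting duct adjusts water, sodium and acid. MEF2 proteins are transcription factors of muscle genes, and HNF1 proteins are transcription factors of kidney, liver and gut epithelium.

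Promoters of 5 genes with large separations between the 2 sets of libraries are shown because they hold the textbook letters of those 2 factor families. Each sequence is the 250 bases before the gene's start on its own strand, 5′ to 3′, from RefSeq on GRCm38.p6, with the matching letters in capitals. Hnf4a and Pkhd1 stood higher in degeneration 2 and 3, and Ttn, Xirp2 and Ppp1r3a stood lower. The windows are chr2:163546905-163547154 (plus strand, 1 of 2 Hnf4a promoters in the table), chr1:20618058-20618307 (minus strand), chr2:76982548-76982797 (minus strand), chr2:67445752-67446001 (plus strand) and chr6:14755275-14755524 (minus strand), in the order shown.
Hnf4a: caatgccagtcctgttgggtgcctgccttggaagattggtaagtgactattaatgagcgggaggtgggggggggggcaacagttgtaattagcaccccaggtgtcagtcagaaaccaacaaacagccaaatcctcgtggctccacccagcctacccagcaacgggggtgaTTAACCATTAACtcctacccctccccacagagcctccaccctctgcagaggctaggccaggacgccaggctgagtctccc
Pkhd1: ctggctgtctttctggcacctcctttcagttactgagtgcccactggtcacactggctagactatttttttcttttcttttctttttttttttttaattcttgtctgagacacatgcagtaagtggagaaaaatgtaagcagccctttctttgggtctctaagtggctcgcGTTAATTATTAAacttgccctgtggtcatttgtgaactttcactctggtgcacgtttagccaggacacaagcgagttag
Ttn: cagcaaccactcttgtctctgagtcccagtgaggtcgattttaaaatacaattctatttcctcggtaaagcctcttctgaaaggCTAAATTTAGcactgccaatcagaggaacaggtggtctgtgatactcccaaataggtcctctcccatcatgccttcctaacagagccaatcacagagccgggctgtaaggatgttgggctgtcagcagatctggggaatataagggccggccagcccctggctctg
Xirp2: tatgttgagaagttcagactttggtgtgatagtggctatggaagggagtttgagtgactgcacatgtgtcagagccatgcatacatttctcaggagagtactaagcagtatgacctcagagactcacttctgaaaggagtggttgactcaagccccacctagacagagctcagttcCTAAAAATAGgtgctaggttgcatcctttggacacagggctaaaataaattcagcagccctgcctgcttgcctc
Ppp1r3a: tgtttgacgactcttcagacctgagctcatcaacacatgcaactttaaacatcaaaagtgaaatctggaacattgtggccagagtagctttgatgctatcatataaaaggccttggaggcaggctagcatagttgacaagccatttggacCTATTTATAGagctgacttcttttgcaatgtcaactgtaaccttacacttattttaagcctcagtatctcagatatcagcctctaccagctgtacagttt
The HNF1 letters searched, on both strands, were GTTAAT and TTAA with 2 free bases between, and they lie 69 to 80 bases before the start in Hnf4a, on the opposite strand, and 68 to 79 bases before it in Pkhd1. The MEF2 letters searched were CTA and TAG with 4 free bases between, which read the same on both strands, and they lie 157 to 166, 65 to 74 and 91 to 100 bases before the start in Ttn, Xirp2 and Ppp1r3a. None of the 32851 promoters in the table held both patterns, and both were chosen after the values had been seen. Across genes with a promoter in the table, the MEF2 letters stood in 15 of 151 genes lower in degeneration 2 and 3 by the rule below (9.93%), 11 of 345 higher genes (3.19%), 105 of 3347 in neither class (3.14%) and 1000 of all 27025 genes (3.70%). The HNF1 letters stood in 5 of 345 higher genes (1.45%), 0 of 151 lower genes, 2 of 3347 in neither class (0.0598%) and 43 of all 27025 (0.159%). The 5 higher genes were Hnf4a, Hoxa10, Mia2, Pkhd1 and Ugt3a1. These are counts of letters in a window, and binding was not measured.

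Pairs of libraries fell into 2 tight sets. Across the 5394 loci with a mean of at least 5 CPM over the 6 libraries, degeneration 2 and 3 correlated at r = 0.985 (Pearson's r of log2(CPM + 1), across genes, which are not independent replicates). Pairs within the other 4 ran from 0.964 to 0.984, and the 8 pairs that cross the division ran from 0.493 to 0.504. Degeneration 2 and 3 differed by more than 4-fold at 5 loci, pairs within the other 4 at 4 to 35 loci, and pairs across the division at 971 to 1047 loci. Degeneration 1 thus lay with the wild type libraries on every one of these measures.

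**Figure D1:**
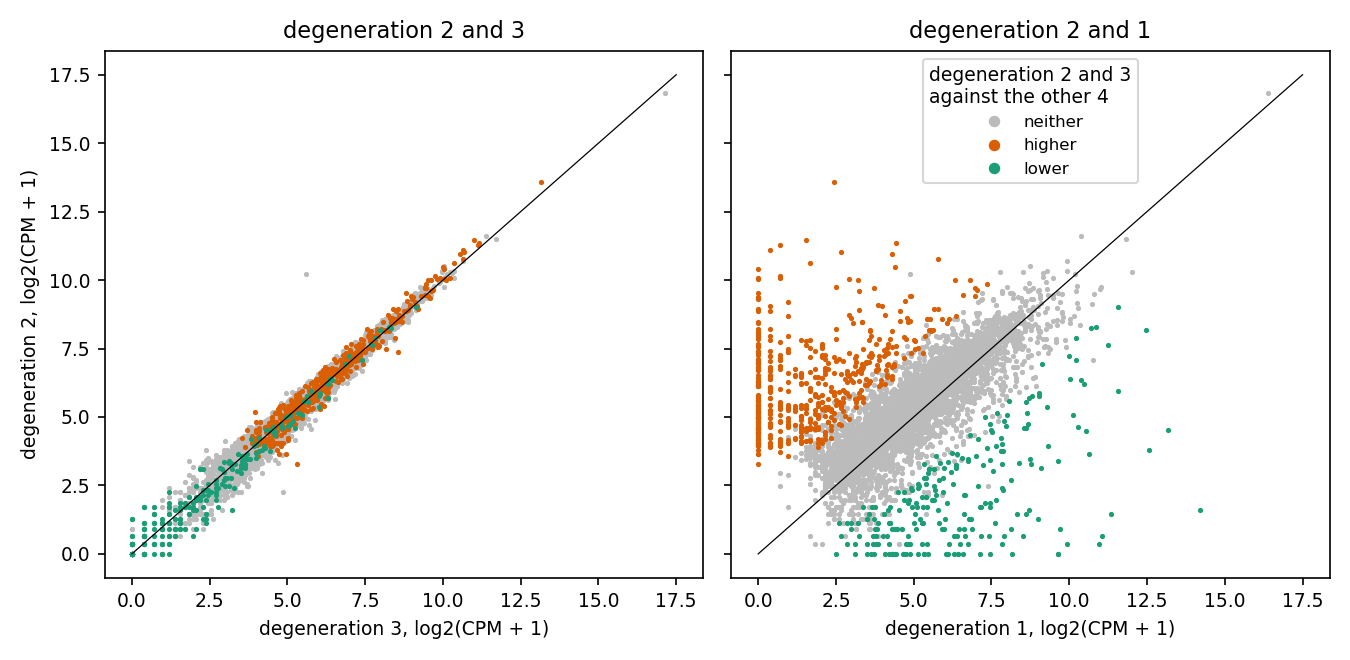
Level of the 5394 loci in degeneration 2 (vertical axis, log2(CPM + 1)) against degeneration 3 (left) and degeneration 1 (right), one point per locus, coloured by the call of degeneration 2 and 3 against the other 4 libraries. The left panel is a narrow band along the line of equality (r = 0.985), and in the right panel orange and green points lie far above and below that line.

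Each locus was then given the ratio of its nearest values: the lower of degeneration 2 and 3 over the highest of the other 4, or the reverse, with counts under 3 set to 3 and a log2 ratio of 0 where the sets overlap. A locus was called higher or lower where this ratio was at least 4-fold. Of 5394 loci, 502 (9.31%) were higher in degeneration 2 and 3 and 237 (4.39%) were lower. Before any fold was asked, degeneration 2 and 3 lay above the other 4 without overlap at 2908 loci (53.9%) and below at 1089 (20.2%). Since values of this contrast chose the libraries, nothing is read from these counts.

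Scaling changed the split between directions. The calls were 67.9% higher with CPM, 56.7% higher with TMM factors (413 higher, 315 lower) and 56.1% with the size factors of DESeq2. For pairs across the division, the median log2 ratio of a library of the other 4 over degeneration 2 or 3 was -0.48 to -0.36 on the CPM scale and -0.06 to -0.04 after TMM scaling. Ratios below are on the CPM scale, so values within about this shift of 0 give no direction.

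The separation was wide at both ends. Called loci with at least 64-fold separation numbered 83 on the higher side and 25 on the lower side. Of the 502 higher loci, 155 had 3 counts or fewer in each of the other 4 libraries, and of the 237 lower loci, 65 had 3 counts or fewer in both degeneration 2 and 3. The higher loci took 10.03% and 8.86% of all counts in degeneration 2 and 3 and 0.376% to 0.406% in the others. The lower loci took 8.97% to 9.90% in the other 4 and 0.399% and 0.424% in degeneration 2 and 3. The loci nearest the threshold were Mtmr11 (4.03-fold) and Slc2a1 (4.04-fold) just inside it, and Map7d1 (3.99-fold) and Gm29480, still nearer to 4-fold, just outside.

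**Figure D2:**
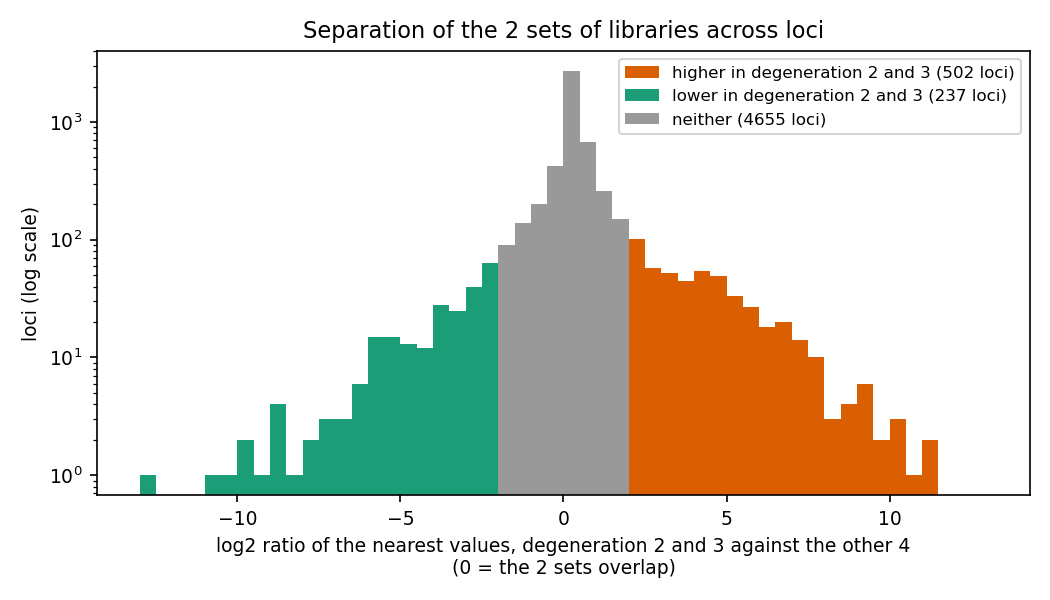
Number of loci (vertical axis, log scale) by the log2 ratio of the nearest values of degeneration 2 and 3 against the other 4 libraries (horizontal axis), with 0 for loci at which the sets overlap. The 502 higher and 237 lower loci form long tails on both sides of the 4655 loci in neither class.

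Genes of heart muscle stood on the lower side, where 25 of the 237 lower loci belong to the heart lists used here. Myh6 encodes the alpha myosin heavy chain, the main motor of the adult mouse heart. It stood at 14664, 16395 and 17448 CPM across wild type 1 to 3, 18993 CPM in degeneration 1, but 2.03 and 1.60 CPM in degeneration 2 and 3. The other 4 libraries were close to one another and all lay above degeneration 2 and 3, by 7231-fold at the nearest values. Its row covers 362 of 6726 exon bases on chromosome 14 (54941921 to 54966927, minus strand), next to the close paralog Myh7, so that reads of the 2 genes may not be told apart. In bulk RNA, fewer cells of a type and less RNA per cell cannot be told apart, here or in any result that follows.

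Ryr2 encodes the calcium release channel of the sarcoplasmic reticulum in heart. Its level was 7264, 6098 and 6211 CPM across wild type 1 to 3, 6012 CPM in degeneration 1, but 12.7 and 17.3 CPM in degeneration 2 and 3. The 2 sets lay 347-fold apart, with small spread inside each (chromosome 13, 11553102 to 12106945, minus strand, 1803 exon bases covered). Lmod2 encodes leiomodin 2, which nucleates actin at the thin filament, and it is among the few genes whose deposited row covers its own exons (chromosome 6, 24597762 to 24605414, plus strand). Its level was 1656, 1292 and 2005 CPM across wild type 1 to 3, 2110.1 CPM in degeneration 1, but 0.579 and 0 CPM in degeneration 2 and 3. That amounts to 2 counts in degeneration 2 and none in degeneration 3, beside 4619 counts or more in each of the others.

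Among sarcomere genes, Ttn, which encodes titin, stood at 9981, 11338 and 10294 CPM across wild type 1 to 3, 9337 CPM in degeneration 1, but 22.02 and 18.9 CPM in degeneration 2 and 3. Myl3, the ventricular essential myosin light chain, was at 1827, 1645 and 2369.9 CPM across wild type 1 to 3, 2596 CPM in degeneration 1, but 1.74 and 0.641 CPM in degeneration 2 and 3. Both genes shared the pattern of Myh6, with no overlap between the sets. The sarcomere and Z-disc list held 38 genes, of which 13 were located and 12 reached a mean of 5 CPM: 11 were called lower and none higher, with a median log2 ratio of -7.83 beside 0.08 over all 5394 loci. Pdlim5, a Z-disc protein also found outside muscle, was the member not called, at 491 to 735 CPM in the other 4 libraries and 191 and 179 CPM in degeneration 2 and 3. Within the other 4, Myom2, an M-line protein, was the uneven member, at 1148, 809 and 3324 CPM across wild type 1 to 3 and 3053 CPM in degeneration 1. Flnc, which encodes the muscle filamin and is counted on its own exons, ran from 1449 to 3242 CPM there and stood at 11.6 and 11.9 CPM in degeneration 2 and 3.

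Genes of the muscle cell beyond the sarcomere followed. Ppp1r3a, the muscle glycogen-targeting subunit of protein phosphatase, was at 1115, 767 and 739 CPM across wild type 1 to 3, 979 CPM in degeneration 1, but 0.290 and 0.641 CPM in degeneration 2 and 3. Xirp2, an actin-binding protein of the junctions between heart cells, was at 1245, 884 and 613 CPM across wild type 1 to 3, 798 CPM in degeneration 1, but 0 and 0.321 CPM in degeneration 2 and 3. Ckm, the muscle creatine kinase, had 466, 585 and 603 CPM across wild type 1 to 3, 801 CPM in degeneration 1 and no count in degeneration 2 or 3, which makes it at least 485-fold lower there. Adprhl1, a heart protein needed for chamber growth, ran from 362 to 415 CPM in the other 4 libraries and had 2 counts in degeneration 2 and 1 in degeneration 3.

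Calcium handling genes were lower to a lesser extent. Of 17 on the list, 12 were located, 10 reached 5 CPM and 8 were called lower, with a median log2 ratio of -3.20. Atp2a2, the calcium pump of the reticulum, which other tissues also express, stood at 4219.9, 4096 and 4332 CPM across wild type 1 to 3, 5661 CPM in degeneration 1, but 287 and 252 CPM in degeneration 2 and 3. Cacna1c, the pore of the L-type calcium channel, was at 1423 to 1713 CPM in the other 4 and 73.0 and 77.9 CPM in degeneration 2 and 3. Trdn, which encodes triadin, a partner of the ryanodine receptor, was at 249 to 463 CPM and 1.74 and 0.641 CPM in the same order. Jph2, which holds the reticulum to the surface membrane, was at 97.9 to 139 CPM and 2.32 and 3.85 CPM. Asph and Camk2d were below without reaching 4-fold, with log2 ratios of -1.09 and -1.33.

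Channels, junctions and transcription factors showed a smaller gap. The channel and junction list had 3 of 6 measured members called lower (median log2 ratio -2.49). Cdh2, the cadherin of heart cell junctions, was at 262, 196 and 243 CPM across wild type 1 to 3, 281 CPM in degeneration 1, but 5.50 and 5.45 CPM in degeneration 2 and 3. Kcnd2, a potassium channel subunit of the transient outward current, ran from 89.5 to 146 CPM in the other 4 and was at 2.32 and 5.77 CPM in degeneration 2 and 3. Kcnj11, the pore of the ATP-sensitive potassium channel, was at 9.98 to 26.1 CPM and 0.290 and 0.641 CPM, whereas Kcnq1, a potassium channel subunit of heart and of many epithelia, was at 60.9 to 93.9 CPM and 52.7 and 50.3 CPM. Of 7 cardiac transcription factors measured, 3 were called lower, with a median of -1.96, and 4 of 7 after TMM scaling. Nkx2-5, the homeobox factor of heart progenitors, had 18.5, 19.3 and 13.9 CPM across wild type 1 to 3, 12.3 CPM in degeneration 1 and no count in degeneration 2 or 3, at least 12.8-fold lower. Gata6 and Hopx were at 168 to 252 and 48.4 to 108 CPM in the other 4 and at 14.2 and 18.0 and 1.45 and 4.17 CPM in degeneration 2 and 3. Gata4 had no count in degeneration 2 or 3 but only 3.74 to 15.7 CPM in the others, and Srf, a factor of all tissues, overlapped between the sets.

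Markers of skeletal muscle and of the atria, where these could be located, were low or of mixed level. Of 24 skeletal muscle genes 10 were located: Myod1 and Myh3 had no count in any library, and Myh2, Myh4 and Actn3 stayed at or under 2.03 CPM. Tnnt1, the slow troponin T, at 50.1 to 77.5 CPM in the other 4, and Mybpc2, at 32.2 to 54.3 CPM, were the 2 members called lower. The third member measured lay the other way: Atp2a1, the calcium pump of fast muscle, was at 18.0 and 17.0 CPM in degeneration 2 and 3 against 6.30 to 9.34 CPM. Of 10 atrial genes 4 were located, and of these Bmp10, Sln and Gja5 stayed at or under 9.76 CPM in every library. The fourth, Dkk3, a secreted protein, was the atrial gene measured and lay above in degeneration 2 and 3, at 49.0 and 47.1 CPM against 14.5 to 25.02 CPM. Sln, an inhibitor of the calcium pump known from atria, had no count in wild type 1 or 2, but reached 5.43 CPM in wild type 3 and, in degeneration 1, 9.76 CPM, so it varied within the other 4. Myl3 was the single ventricular marker located. Over the 7 heart lists together, of which 41 of 102 genes were located, 25 of 36 measured members were called lower and none higher (26 after TMM scaling). Of the 36, 14 had a mean under 5 CPM in degeneration 2 and 3, so they met the filter on level through the other 4 libraries alone. The summed level of the lists was 55218, 56313 and 58282 CPM across wild type 1 to 3, 61107 CPM in degeneration 1, but 1684 and 1630 CPM in degeneration 2 and 3.

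**Figure D3:**
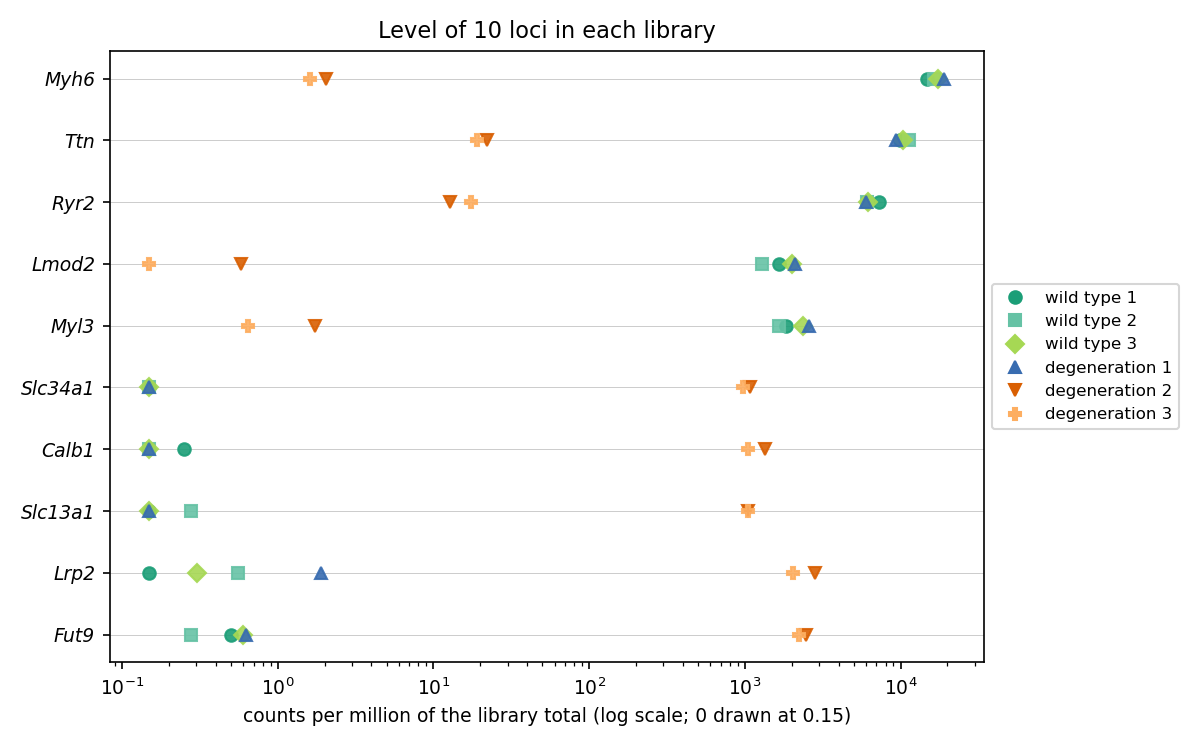
CPM of 10 loci (horizontal axis, log scale) in each of the 6 libraries, one symbol per library, with a level of 0 drawn at 0.15 CPM. For the 5 heart genes the symbols of degeneration 2 and 3 lie at 22.02 CPM or less and the other 4 at 1292 CPM or more, and for the 5 kidney genes the order is reversed.

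On the higher side stood genes of the kidney tubule, beginning with those of the proximal segment. Slc34a1 encodes the sodium-phosphate cotransporter of the proximal tubule. It had no count in wild type 1 to 3 or degeneration 1, and 1081 and 966 CPM in degeneration 2 and 3, which makes it at least 1023-fold higher there (chromosome 13, 55398187 to 55415592, plus strand, 160 of 4676 exon bases covered). Lrp2 encodes megalin, the receptor that takes filtered proteins back up. It stood at 2829 and 2030.3 CPM in degeneration 2 and 3, but 1.89 CPM in degeneration 1 and 0, 0.559 and 0.301 CPM across wild type 1 to 3. Its partner Cubn, which encodes cubilin, was at 1059 and 904 CPM in degeneration 2 and 3, but 6.61 CPM in degeneration 1 and 8.73, 6.15 and 7.84 CPM across wild type 1 to 3. Both receptors were separated without overlap, and Lrp2 had at most 6 counts in a library of the other 4 (chromosome 2, 69424340 to 69586065, minus strand).

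Among the other proximal transporters, Slc13a1, the sodium-sulfate cotransporter, is counted over nearly all of its own exons (7712 of 7728 bases). It stood at 1048 and 1049 CPM in degeneration 2 and 3, with 1 count in wild type 2 and none in the rest. Slc6a18, a neutral amino acid transporter of the brush border, was at 1567 and 1314 CPM in degeneration 2 and 3, but 2.20 CPM in degeneration 1 and 1.995, 0.559 and 1.21 CPM across wild type 1 to 3. Slc22a8, an organic anion transporter that takes up drugs from blood, was at 667 and 529.9 CPM in degeneration 2 and 3 and had 2 counts in 1 of the other 4 libraries and none in 3. Slc9a3, the sodium-proton exchanger of the proximal brush border, was at 296 and 256 CPM against 3.74 to 5.31 CPM. The list of proximal uptake genes held 37, of which 18 were located, and 15 of the 18 were called higher (14 after TMM scaling). Of these, 12 had a mean under 5 CPM in the other 4 libraries, met the filter on level through degeneration 2 and 3 alone and so had to stand higher there, as did 49 of the 74 measured members of the kidney lists. The counts of these lists are therefore a description and support nothing. Slc47a1, an exporter of organic cations, had the smallest gap of the 15, with 102 to 142 CPM in the other 4 libraries and 843 and 701 CPM in degeneration 2 and 3. Slc17a3, Slc7a13 and Slc4a4 were located but stayed under a mean of 5 CPM.

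Enzymes of the brush border and of proximal metabolism were higher as well. Of 9 located enzymes of peroxisome and amino acid breakdown, all at a mean of 5 CPM or more, 7 were called higher (median log2 ratio 6.47), beside 9.31% of all loci. Of the 9, 4 met the filter on level through degeneration 2 and 3 alone, so this count supports nothing. Glyat, which conjugates glycine to acyl groups, and Hpd, of tyrosine breakdown, had no count in any of the other 4 libraries and stood at 349 and 265 CPM and 202 and 130.5 CPM in degeneration 2 and 3. Agxt2, a mitochondrial aminotransferase, was at 272 and 237 CPM with a single count elsewhere, in wild type 1. Aass, of lysine breakdown, Fah, of tyrosine breakdown, and Dao, the D-amino acid oxidase, had counts in all 6 libraries. Aass was at 1032 and 727 CPM in degeneration 2 and 3 against 4.47 to 8.19 CPM, Fah at 679 and 498 CPM against 22.6 to 32.7 CPM, and Dao at 547 and 489 CPM against 13.54 to 16.3 CPM. Of the brush border list, 6 of 8 measured members were called higher (median 2.97): Vil1, the actin bundler of microvilli, was at 171 and 156 CPM against 0.315 to 0.904 CPM, and Ace, which vessels also express, was among the 2 members not called, at 129.8 and 110.3 CPM against 44.7 to 59.1 CPM.

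Markers of the loop and distal tubule were higher in the same 2 libraries. Egf, which the thick ascending limb and distal tubule make in quantity, stood at 2621 and 2285 CPM in degeneration 2 and 3, but 20.5 CPM in degeneration 1 and 9.73, 12.9 and 17.8 CPM across wild type 1 to 3. Of the thick ascending limb list 4 of 7 located members were called higher and 2 stayed under a mean of 5 CPM, with Ptger3, Cldn19 and Tmem207 at no count in all of the other 4 libraries and between 15.6 and 43.3 CPM in degeneration 2 and 3. Calb1, which encodes calbindin, the calcium carrier of the distal and connecting tubule, is counted over its own 4846 exon bases (chromosome 4, 15881264 to 15908064, plus strand). It was at 1344 and 1047 CPM in degeneration 2 and 3, with 1 count in wild type 1 and none in wild type 2, wild type 3 and degeneration 1. Slc12a3, the salt cotransporter that thiazide drugs block, was at 1439.8 and 1019 CPM in degeneration 2 and 3, but 20.2 CPM in degeneration 1 and 19.5, 13.7 and 19.3 CPM across wild type 1 to 3. Trpv5, the calcium entry channel, and Tmem52b had no count in the other 4 and stood at 85.5 and 65.1 CPM and 733 and 451 CPM. In all, 7 of 9 located distal members were called higher, and 6 of the 9 were measured through degeneration 2 and 3 alone. Atp2b4, a calcium pump of many tissues, overlapped between the sets.

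Genes of both cell types of the collecting duct stood higher. Of 14 principal cell genes 4 were located and called higher, each of them measured through degeneration 2 and 3 alone. Scnn1g, a subunit of the epithelial sodium channel, had no count in the other 4 and 69.5 and 45.8 CPM in degeneration 2 and 3. Its partners Scnn1a and Scnn1b were at 106 and 90.1 CPM and 145 and 144 CPM, against 0.315 to 1.25 CPM and 1.496 to 3.63 CPM. Aqp3, the water and glycerol channel of the basal membrane, counted on its own exons, was at 221 and 209.7 CPM in degeneration 2 and 3, but 0.315 CPM in degeneration 1 and 0.249, 0 and 0 CPM across wild type 1 to 3. Of 18 intercalated cell genes 11 were located and called higher (10 after TMM scaling), 10 of them measured through degeneration 2 and 3 alone. Atp6v1b1 and Atp6v0a4, subunits of the proton pump that these cells use, were at 114 and 119 CPM and 129.8 and 145 CPM against 0.630 to 2.24 CPM and 0.301 to 1.12 CPM. Slc26a4, the anion exchanger pendrin, was at 151 and 109 CPM against 0.630 to 1.96 CPM, and Slc4a1, an exchanger shared with red cells, at 154 and 127 CPM against 3.46 to 8.95 CPM.

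Podocyte genes stood apart from the tubule. Only Col4a3 and Col4a4, collagen chains of the glomerular basement membrane, were called higher among 7 measured members (18 listed, median 1.31). Before any fold was asked, 5 of the 7 lay above without overlap and 1 below, beside 53.9% and 20.2% of all loci. Col4a3 was at 357 and 409.7 CPM in degeneration 2 and 3, but 9.13 CPM in degeneration 1 and 10.5, 7.27 and 13.0 CPM across wild type 1 to 3, and Col4a4 at 488 and 591 CPM in degeneration 2 and 3, but 48.8 CPM in degeneration 1 and 47.6, 44.5 and 53.1 CPM across wild type 1 to 3. Ptpro, a phosphatase of podocyte foot processes, was above by less than 4-fold, at 22.3 and 20.8 CPM against 3.91 to 5.73 CPM. Synpo overlapped between the sets and Plce1 was below, at 44.9 and 42.6 CPM against 95.1 to 123 CPM. Neither nephrin nor podocin, the defining podocyte genes, was located.

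Transcription factors of the tubule epithelium were on the higher side. Hnf4a, a nuclear receptor that drives proximal tubule genes, stood at 1127 and 853 CPM in degeneration 2 and 3, but 0.630 CPM in degeneration 1 and 0.249, 0.280 and 0 CPM across wild type 1 to 3. Ehf and Tfap2b were at 50.4 and 73.4 CPM and 47.2 and 41.7 CPM and had at most 2 counts elsewhere. Of 23 listed factors 6 were located, 5 of them measured through degeneration 2 and 3 alone, and 5 were called higher, with Irx1 as the exception at a log2 ratio of 1.80. Pkhd1, the gene of recessive polycystic kidney disease, was at 653 and 766 CPM with a single count elsewhere, in wild type 3. Fut9, a fucosyltransferase counted over all of its own 13824 exon bases, stood at 2478 and 2217 CPM in degeneration 2 and 3, but 0.630 CPM in degeneration 1 and 0.499, 0.280 and 0.603 CPM across wild type 1 to 3. Ugt3a2, a sugar transferase, and Abcc2, an exporter of conjugates, stood at 2195 and 1602 CPM and 1082 and 1186 CPM in degeneration 2 and 3 while in the others their highest levels were 0.315 CPM and 1.496 CPM.

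Hormone and adhesion genes stood on the same side. Of 5 located members of the hormone list 4 were called higher: beside Egf these were Pth1r, the parathyroid hormone receptor, at 597 and 462 CPM against 19.0 to 35.9 CPM, Kl, which encodes klotho, at 231 and 210.0 CPM against 13.7 to 17.9 CPM, and Agt, the angiotensin precursor, at 40.6 and 35.6 CPM against 3.46 to 6.43 CPM. Epo had 1 count in degeneration 2 and none elsewhere. Of 7 epithelial adhesion and keratin genes located, 5 were called higher and 1 stayed under a mean of 5 CPM. Cdh1, the cadherin of epithelia, was at 528 and 494 CPM in degeneration 2 and 3, but 0.315 CPM in degeneration 1 and 0.499, 0.280 and 0 CPM across wild type 1 to 3, and Krt8 at 127 and 125 CPM against 0 to 0.839 CPM. Prlr, the prolactin receptor, counted on nearly all its exons, was at 1739 and 1614 CPM against 31.6 to 53.8 CPM. Over the 12 kidney lists, with 84 of 201 genes located, 63 of 74 measured members were called higher and none lower (60 after TMM scaling). Their summed level was 38126 and 31297 CPM in degeneration 2 and 3, and 842 to 953 CPM in the other 4. All lists were drawn up with earlier results of these data known, so their counts are no independent evidence.

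**Figure D4:**
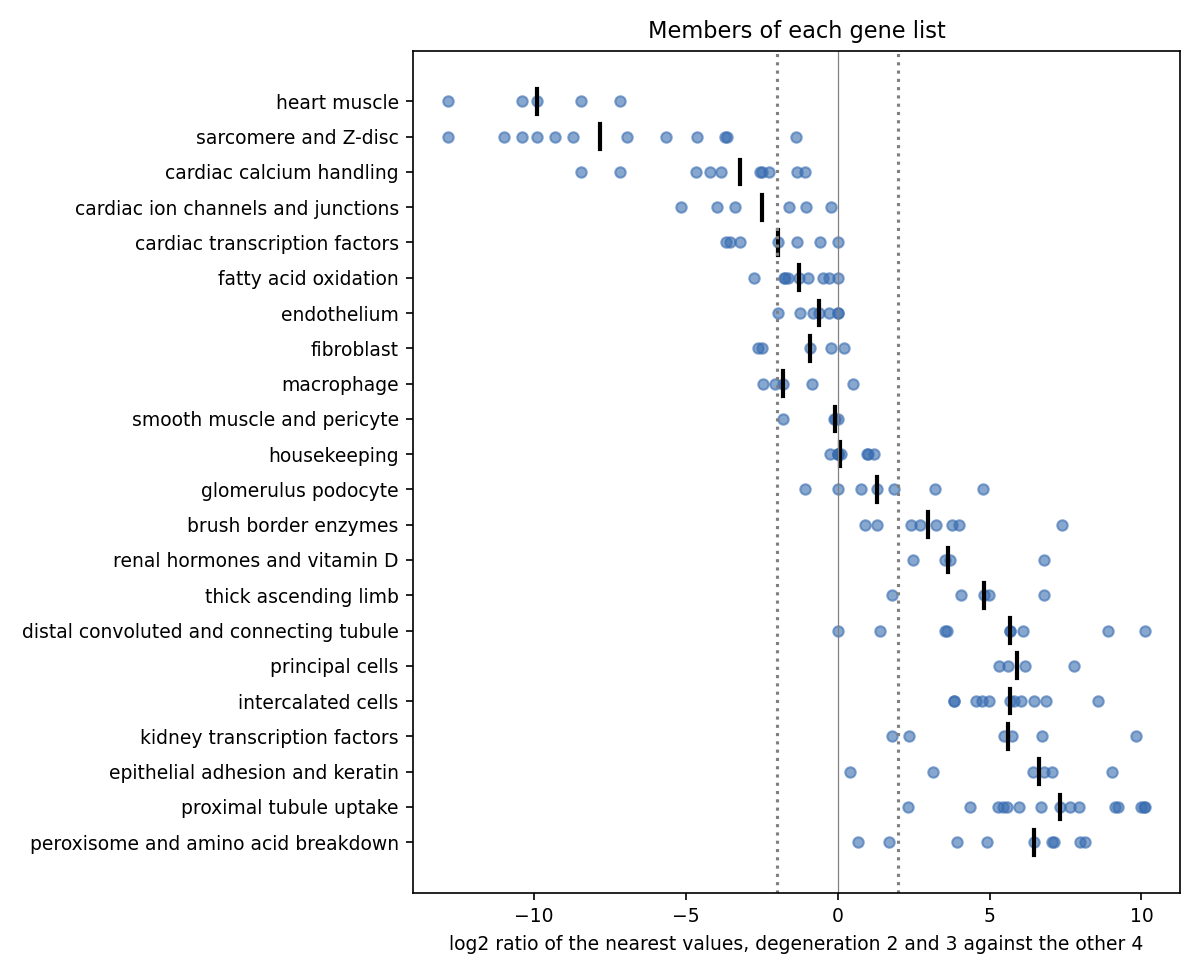
Log2 ratio of the nearest values of degeneration 2 and 3 against the other 4 libraries (horizontal axis) for the measured members of 22 gene lists, one point per member, with a bar at each list's median and dotted lines at 4-fold. Heart lists lie to the left (medians of -9.89 for heart muscle and -7.83 for sarcomere), tubule lists to the right, where many members met the filter on level through degeneration 2 and 3 alone, and housekeeping genes at 0.06.

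Pairs of related genes, of which a muscle uses one and other tissues the other, gave the same contrast as a ratio within each library, which does not depend on the library's scaling. Of 29 listed pairs, 8 had both genes located, and in 8 of 8 the ratio of the muscle form to the other form was higher in each of the other 4 libraries than in degeneration 2 and 3. Every muscle form but Slc2a4 was itself called lower, and the partner of Slc2a4, Slc2a2, was called higher. The direction of these ratios thus follows from the values that chose the libraries, and their count supports nothing. For Cdh2 over Cdh1 the log2 ratio of counts was 8.45, 7.87 and 8.07 across wild type 1 to 3, 8.21 in degeneration 1, but -6.58 and -6.50 in degeneration 2 and 3. For Ckm over Ckb, the muscle and brain forms of creatine kinase, the log2 ratio was 2.58, 2.62 and 3.13 across wild type 1 to 3, 3.42 in degeneration 1, but -8.45 and -8.15 in degeneration 2 and 3, with counts under 3 set to 3.

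Glycolysis and glucose uptake showed smaller gaps. For Hk2 over Hk1, hexokinases of muscle and of most tissues, the log2 ratio was 0.94, 1.02 and 1.70 across wild type 1 to 3, 1.65 in degeneration 1, but -6.26 and -5.57 in degeneration 2 and 3. Hk1 overlapped between the sets, with 121 to 159 CPM over all 6 libraries. For Pygm over Pygl, the muscle and liver glycogen phosphorylases, the nearest ratios lay 7.22 apart (log2), for Eno3 over Eno1 5.35, for Slc2a4 over Slc2a2 4.52 and for Pfkm over Pfkl 2.44. Slc2a2, the glucose transporter of liver, kidney and beta cells, was at 406 and 413 CPM in degeneration 2 and 3 against 47.3 to 85.9 CPM. For Atp2a2 over Atp2a3 the gap was 4.55. The loci of a pair cover different lengths of exon, so the ratio is read across libraries and not as one gene exceeding the other.

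**Figure D5:**
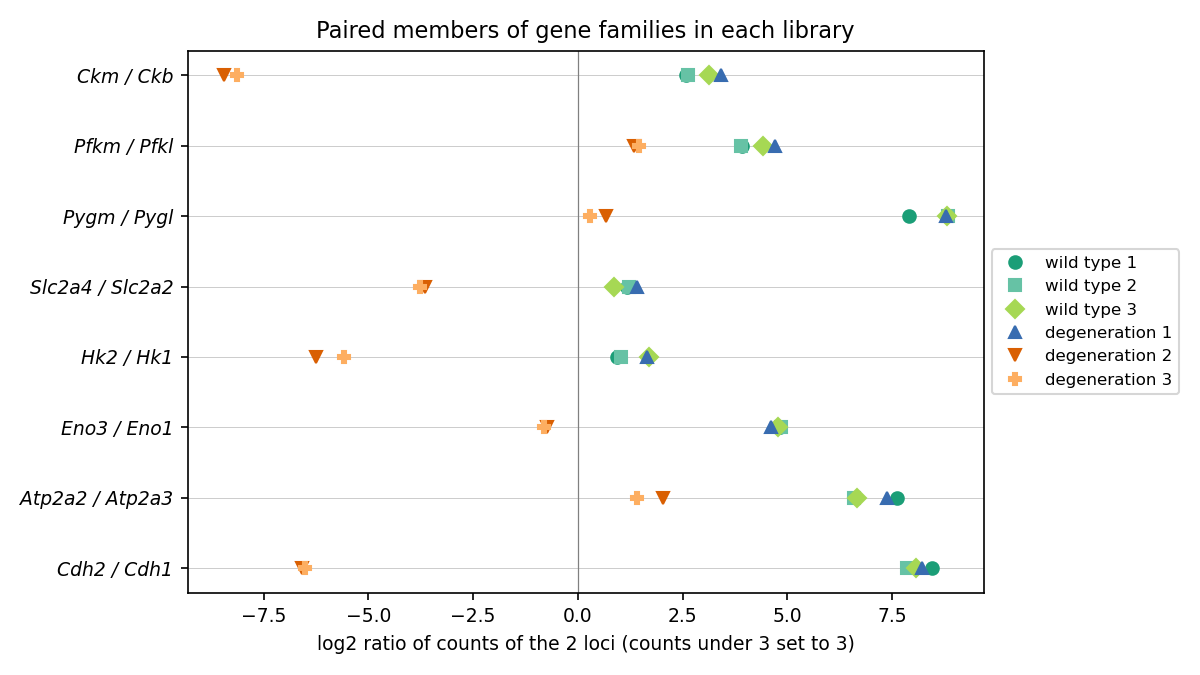
Log2 ratio of the counts of the muscle form to the other form (horizontal axis) for 8 gene pairs, one symbol per library. In each pair degeneration 2 and 3 lie to the left of the other 4 libraries, by 2.44 for Pfkm over Pfkl up to 14.37 for Cdh2 over Cdh1.

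Oxidation of fatty acids, on which both heart and proximal tubule run, was the metabolic list with the least separation. Of 9 measured members 1 was called lower (4 after TMM scaling) and none higher, with a median log2 ratio of -1.27. Cd36, the fatty acid translocase of heart and fat, was that member, at 367 to 589 CPM in the other 4 and 53.9 and 49.1 CPM in degeneration 2 and 3. Acadl and Hadha, a dehydrogenase and the trifunctional enzyme of the pathway, were at 177 and 163 CPM and 67.2 and 62.8 CPM against 428 to 659.6 CPM and 227 to 393 CPM. Cpt2 overlapped between the sets. Pdk4, a kinase that spares glucose, varied within the other 4, at 1258, 1021 and 295 CPM across wild type 1 to 3 and 474 CPM in degeneration 1, and lay above 87.5 and 95.2 CPM in degeneration 2 and 3.

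Genes of vessels, connective tissue and blood cells differed less than genes of the sarcomere or of proximal uptake, and some moved among libraries in other ways. The macrophage list, with a median log2 ratio of -1.79, was near the cardiac transcription factors at -1.96. None of 7 measured endothelial genes was called (1 after TMM scaling), with a median log2 ratio of -0.63: Pecam1, the adhesion molecule of endothelium, was at 512, 492 and 419.6 CPM across wild type 1 to 3, 325 CPM in degeneration 1, but 182 and 187 CPM in degeneration 2 and 3. Of 4 smooth muscle and pericyte genes none was called (1 after TMM scaling), and Myh11, the smooth muscle myosin, overlapped between the sets. Of 5 macrophage genes 2 were called lower (Cd163 and Lyz2), while Csf1r, the receptor for their growth factor, was at 114 and 96.8 CPM in degeneration 2 and 3 and 61.1 to 68.8 CPM in the others. Of 5 fibroblast genes 2 were called lower, namely Dcn and Gsn, with a median log2 ratio of -0.925. The share called lower over all loci was 4.39%. Col1a1, the main chain of fibrillar collagen, ran unevenly within the other 4, at 629, 284 and 146 CPM across wild type 1 to 3 and 128 CPM in degeneration 1, and was at 54.2 and 67.6 CPM in degeneration 2 and 3. Hbb-bs, a beta globin of red cells with near-identical copies, was at 283, 1563 and 4245 CPM across wild type 1 to 3, 1724 CPM in degeneration 1, but 135 and 105 CPM in degeneration 2 and 3. The part of vessel, stroma and blood content in any of the above was not tested.

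Among 8 measured housekeeping genes none was called, with a median log2 ratio of 0.06 (0.00 after TMM scaling). Polr2a, the large subunit of RNA polymerase II, was at 313 and 320.3 CPM in degeneration 2 and 3 and 145 to 157 CPM in the other 4. Ppia and Ywhaz were likewise above, with log2 ratios of 1.20 and 0.95. Vcp was at 591 and 534 CPM against 697 to 841 CPM, a log2 ratio of -0.24, which is inside the shift between scalings. Gapdh, a glycolytic enzyme that every cell uses and that has many pseudogene copies, is listed at 0 in all 6 libraries.

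Cartilage markers of the labelled tissue were scarce in both sets. Of 20 cartilage genes 6 were located, and their summed level was 22.04 to 31.7 CPM in the other 4 libraries and 32.7 and 42.6 CPM in degeneration 2 and 3. Acan, the aggregating proteoglycan of disc and cartilage, had 2 counts in wild type 1, 1 in wild type 2 and none elsewhere over 1158 exon bases. Noto, the homeobox gene of notochord cells, had at most 1 count in a library, and Krt19 had none. Summed over 5 located nucleus pulposus markers, these 2 among them, the level was 886 and 869.8 CPM in degeneration 2 and 3 against 21.2 to 36.5 CPM. It rested on Krt8, Car12 and Cd24a, which were called higher and of which Krt8 and Car12 also stand on the kidney lists. Of 7 measured genes of annulus and tendon 2 were called lower, Dcn and Postn (3 after TMM scaling), and Postn, the matrix protein periostin, which heart fibroblasts also make, was at 22.04 to 209 CPM in the other 4 and 2.03 and 3.21 CPM in degeneration 2 and 3. Tnmd, of tendon, had 1 count in all. Col2a1 and Sox9 were not located.

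Markers of other organs were located in small numbers, and most of those located stayed under a mean of 5 CPM. Of 18 retina genes 8 were located, and 7 of them stayed under a mean of 5 CPM. Abca4 was called higher, at 57.4 and 75.7 CPM against 8.50 to 11.7 CPM, and was not called after TMM scaling. Of 15 liver genes 4 were located: Cps1 had at most 1 count in any library, Fga was at 3.19 and 2.89 CPM in degeneration 2 and 3, and Ttr, which choroid plexus and liver make, was called higher at 38.0 and 25.01 CPM. Of 5 located brain genes 1 was called lower, Slc17a7, at 6.63 to 19.0 CPM in the other 4. Located markers of lung (2 of 10 listed), lymphoid tissue (1 of 10), adrenal (3 of 11), fat (4 of 10) and bone (2 of 11) stayed under a mean of 5 CPM. So few loci cannot show that an organ is absent. Of 9 intestine genes 4 were located, and the 1 measured was Vil1, also on the kidney lists and called higher. Some called loci carry names that neither tissue is known for, such as Blk on the lower side and Vmn1r17 and Vmn1r18 on the higher side. No strand was used in counting, so an overlapping transcript on the opposite strand cannot be told apart from such a gene, and Vmn1r17 and Vmn1r18 belong to a family of close copies.

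The level left in the opposite set was taken over list members chosen by level in the set where their list is high, with counts under 3 set to 3. That choice uses the values that chose the libraries, so the levels left are a description and support nothing. Of the kidney lists, 45 located members reached 100 CPM in both degeneration 2 and 3, and 43 of them were called. The highest of the other 4 libraries stood at a median of 1.96% of the lower of the 2, under 1% at 21 members and over 25% at 2, up to 53.6% for Ace. Of the heart lists, 23 located members reached 100 CPM in all of the other 4, and 18 of them were called. In degeneration 2 and 3 the 23 members stood at a median of 4.07%, under 1% at 9 and over 25% at 5, up to 66.1% for Mef2a, a factor of many tissues. The level left was 0.0138% for Myh6, 0.236% for Ttn and 0.288% for Ryr2, and at most 0.0745% for Lmod2, which had fewer than 3 counts. For kidney genes in the other 4 it was 0.0930% for Lrp2 and 0.896% for Egf, and at most 0.0902% for Calb1 and 0.0426% for Fut9.

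Degeneration 2 and 3 also differed from each other in part, with 1 library each and hence no replicate check. The median log2 ratio of degeneration 2 over degeneration 3 was 0.00 over all 5394 loci. It was 0.36 over the 9 distal tubule genes, with 9 of 9 above in degeneration 2, and 0.21 over 15 proximal uptake genes, with 13 of 15 above. Over the 5 thick ascending limb genes it was -0.52, with 1 of 5 above: Cldn19 stood at 15.6 and 26.6 CPM and Ptger3 at 30.1 and 43.3 CPM in degeneration 2 and 3. The lean to degeneration 2 was not particular to distal and proximal lists, with 9 of 11 intercalated and 4 of 4 principal cell genes above. Of the kidney transcription factors 3 of 6 were above, and of the epithelial adhesion and keratin genes 2 of 6. Members of a list are not replicates. Ranbp3l, a higher locus, was at 163 CPM in degeneration 2 and 374 CPM in degeneration 3, and Slc16a14 at 35.3 and 14.4 CPM. The protein-coding locus furthest apart, among those at 20 CPM or more in either library, was Vcan, a large matrix proteoglycan, at 3.77 CPM in degeneration 2 and 27.9 CPM in degeneration 3, beside 28.0 to 96.8 CPM in the other 4. Vwf, which endothelium makes, was at 9.85 and 23.4 CPM in the 2 libraries and 91.6 to 159 CPM in the others. These genes were picked for their difference.

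The labels themselves gave the one comparison that could be tested. With edgeR's quasi-likelihood test of the 3 libraries labelled degeneration against the 3 labelled wild type, 0 of 5573 loci (0.0%) passed an adjusted p of 0.05, and 1092 had an unadjusted p under 0.05. DESeq2 called 526 of 6342 loci, 435 higher and 91 lower. Myh6 had a log2 fold change of -1.29 ± 2.81 (SE, adjusted p = 0.794 by edgeR), Ryr2 of -1.63 ± 2.17 (adjusted p = 0.668 by edgeR) and Lmod2 of -1.16 ± 2.58 (adjusted p = 0.797 by edgeR), with degeneration 1 at the level of wild type 1 to 3 or above for Myh6 and Lmod2 and just under it for Ryr2. Without degeneration 1 these became -13.49, -9.17 and -12.63 (adjusted p = 1.82e-09, 2.43e-09 and 7.46e-09 by edgeR). That omission leaves the division that was chosen on the values of these genes, so its p-values support nothing. With the replicate number as a block the log2 fold changes of the 3 genes were -11.71, -7.47 and -9.79 (adjusted p = 0.384, 0.371 and 0.384 by edgeR). Their adjusted p lay between 0.611 and 0.946 under each other alternative that gave one. Egf had 6.57 ± 1.62, with an adjusted p of 0.231 by edgeR and of 5.63e-09 to 0.603 over the other settings, and was higher in 2 of 3 libraries labelled degeneration. Lrp2, Calb1 and Slc34a1 did not pass the count filter, which asks for counts in 3 libraries. Without that filter each had an adjusted p of 0.238 by edgeR, and DESeq2 called the 3, with adjusted p-values of 9.47e-08, 0.00883 and 0.0159. Without degeneration 1 the same test called 3265 of 6157 loci, 1658 higher and 1607 lower, which is the division described above, seen through the labels, and no separate evidence for it. Where nothing in the labels says that libraries are separate animals, these p-values measure the spread between libraries, which may be technical.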

How the data were processed

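Counts were deposited as the authors made them with featureCounts 2.0.1 (per the file headers), which kept pairs with both ends mapped, dropped chimeric pairs, added up exons under each gene name and used no strand. The submitters' processing notes name Bowtie 0.12.2 and 2 builds, mm8 and mm9, without a role, and the build of the counting annotation is not given in the sources used here. A table of the whole series with 12 columns of values under names that match no sample was not used.

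Row intervals were read as GRCm38, intersected with GENCODE M21 exons (bedtools 2.31.1, Python 3.11.15, pandas 2.3.3) and summed per gene. 98 rows in which 2 or more genes reached the share stayed unnamed. CPM used each library's total. Loci with a mean of at least 5 CPM entered the descriptive contrast, with calls at 4-fold between nearest values and a floor of 3 counts. The label comparison used the quasi-likelihood test of edgeR 4.0.16 in R 4.3.3 on all 6 libraries, with TMM factors, filterByExpr and no covariate, Benjamini-Hochberg adjustment at 0.05, and was tested on simulated data. Alternatives were DESeq2 1.42.0, other scalings, filters, folds and naming rules, a replicate block and each library left out.

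The members and lists were chosen with earlier results of these data known. The text names the 6 markers, the 10 largest separations per direction at 100 CPM or more, and members drawn from up to 4 per list. For heart and kidney lists these had the highest lowest value in the libraries where the list is expected. For the remaining lists they had the highest mean over the 6 libraries. Some genes that this rule names, and 1 listed gene pair, are not reported here, while list counts include all measured members. Other genes were named after their values were seen. 44 lists were read in all, and where a list is not named in the text none of its members was called, the called ones are named there with other genes, or it has under 2 measured members.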

Additional observations from a re-analysis of the deposited data

How the results depend on the processing

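Directions were recomputed for the 6 marker genes and Egf, and none reversed under the alternatives that gave a value. Higher loci numbered 502 of 5394 in the main setting, 912 of 5394 at 2-fold and 286 of 3566 at a mean of 20 CPM. They numbered 44 of 464 with the rows on their own exons alone and 1154 of 13592 rows under the names as deposited. With each library left out they numbered 464 to 556. Lower loci numbered 237 of 5394 in the main setting, 468 of 5394 at 2-fold and 133 of 5394 at 8-fold. They numbered 28 of 464 with the rows on their own exons alone and 599 of 13592 rows under the names as deposited. With each library left out they numbered 241 to 295. Heart list members called lower numbered 16 when at least 95% of exon bases and 200 bases were asked, beside 25, and 25 to 27 with each library left out. Kidney list members ran from 61 to 65 with each library left out. Fewer loci enter under a stricter naming rule, and Myh6 and Slc34a1 were then not located. The label comparison gave 526 loci with DESeq2 and 0 to 3265 with each library left out, where 3265 is without degeneration 1 and every other omission gave 0. With the replicate number as a block it gave 0 loci, and 695 at an unadjusted p under 0.05 by edgeR, beside 1092. Deviations of same-numbered libraries correlated at -0.08, 0.09 and -0.11, and since deviations of the libraries labelled degeneration follow the division described above, this cannot show whether the numbers pair the libraries. Levels under the floor of 0.748 to 0.962 CPM were not detectable at these depths.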

Other observations

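Gene families picked by symbol, after the values were seen, held further groups that separate degeneration 2 and 3 from the other 4 libraries. Hox genes specify position along the body axis, and some of them are kept on in the adult kidney. Of 9 located Hox genes 6 were called higher in degeneration 2 and 3, beside 9.31% of all loci. Those 6 reached a mean of 5 CPM through degeneration 2 and 3 alone, so they had to stand higher there and their count supports nothing. Hoxa9 stood at 120 and 107 CPM there and Hoxc4 at 53.6 and 60.9 CPM, both with no count in the other 4 libraries. Hoxc6 stood at 78.2 and 93.6 CPM, with 1 count in wild type 1, 1 in wild type 2 and none in wild type 3 or degeneration 1. Hoxa10 stood at 35.9 and 49.1 CPM with 1 count elsewhere, in wild type 1. Hoxc10 and Hoxb8 were lower in level, at 16.8 to 21.8 CPM in the 2 libraries. Hoxb13, the last of its cluster, had no count in any library.

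Solute carriers, the membrane transporters of ions and nutrients, were called higher at 43 of 107 measured members and lower at 3, beside 9.31% and 4.39% of all loci, where 33 of the 107 were measured through degeneration 2 and 3 alone. The 3 lower members were Slc28a2, a nucleoside transporter, at 96.3 to 131 CPM in the other 4 and 1.74 and 1.28 CPM in degeneration 2 and 3, Slc7a1, a carrier of basic amino acids, at 169 to 209 CPM and 25.8 and 32.7 CPM, and Slc17a7. Sugar transferases of the Ugt families, which conjugate drugs and steroids, had 7 members located and 4 measured. All 4 were called higher, beside 9.31% of all loci. Of the 4, 3 were measured through degeneration 2 and 3 alone, so their count supports nothing. Ugt3a1 had no count in the other 4 libraries and 489 and 334 CPM in degeneration 2 and 3. Of 10 measured cytochromes P450, 4 were called higher and 1 lower, beside 9.31% and 4.39% of all loci. Of the 10, 4 were measured through degeneration 2 and 3 alone, so their count supports nothing. Cyp4a31, a fatty acid hydroxylase with near-identical copies, had no count in the other 4 and 139 and 116 CPM in degeneration 2 and 3. Of 10 measured subunits of the vacuolar proton pump, 3 were called higher, beside 9.31% of all loci. Of the 10, 4 were measured through degeneration 2 and 3 alone, so this count supports nothing. The 3 called were Atp6v0a4, Atp6v0d2 and Atp6v1b1, forms known from intercalated cells. The other 7 ran from a log2 ratio of -0.085 for Atp6v0a1 to 1.22 for Atp6v1f, with a median of 1.07 over the 10. Of 19 collagens 3 were called higher (Col4a3, Col4a4 and Col18a1) and 3 lower (Col5a3, Col6a6 and Col28a1), beside 9.31% and 4.39% of all loci. None of 11 mitochondrial ribosomal protein genes and none of 5 proteasome subunit genes was called in either direction, and the median log2 ratio of both families was 0.00.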
